A study of Mus musculus with 2 samples.

Results

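The genes of the proteasome were followed across the cells of the late embryonic mouse cortex and the newborn ventricular-subventricular zone (V-SVZ), the germinal layer that lines the lateral ventricles. Members were all genes whose symbol was Psma, Psmb, Psmc, Psmd, Psme, Psmf or Psmg followed by a digit, with names ending in -ps left out. This rule found 50 of the 31053 genes in the count tables, each listed once in both libraries, and it used no measured value. One library held cells of the cortex with the dorsal V-SVZ of CD1 mice at embryonic day 18 (E18). The other held cells of the dorsal and lateral V-SVZ, with the cortex cut away, of Emx1Cre;R26Eyfpfl/fl mice at postnatal day 2 (P2). In these mice a Cre driven by Emx1 turns on EYFP in cells of cortical origin. No treatment was given to either group, and cells of both were sorted as live, nucleated cells before capture. There was 1 library per age, so age, dissection, mouse line and library cannot be told apart and no test between ages was possible.

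The proteasome is the protease that degrades ubiquitin-tagged proteins. Its barrel-shaped core particle is built of alpha and beta rings, and 3 beta subunits, encoded by Psmb5, Psmb6 and Psmb7, carry the catalytic sites. A regulatory particle with a ring of ATPases (Psmc genes) and non-ATPase subunits (Psmd genes) caps the core, recognises the tagged protein, removes the tag and unfolds the chain. Immune cells and cells exposed to interferon replace the 3 catalytic subunits by the inducible ones encoded by Psmb8, Psmb9 and Psmb10, which gives the immunoproteasome and changes the peptides offered for antigen presentation.

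By role, the 50 members were 14 core particle genes, 17 regulatory particle genes, the 3 inducible catalytic genes, 4 activators (Psme1 to Psme4), 1 inhibitor (Psmf1), 4 core particle chaperones (Psmg1 to Psmg4), 3 regulatory particle chaperones (Psmd5, Psmd9 and Psmd10) and 3 genes of restricted tissue use (Psma8 of the testis, Psmb11 of the thymus and Psme2b). The last, Psmc3ip, fits the naming rule but encodes a partner of meiotic recombinases and no proteasome subunit. The 50 genes lay on 16 chromosomes, with 10 of them on chromosome 11.

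The promoters of Psmb5 and of the 3 inducible genes are shown because the contrast between constitutive and inducible catalytic subunits was the sharpest difference between cell types. Each window runs from 250 bases before to 50 bases after the RefSeq start (GRCm38.p6), is written on the strand of the gene, and has in capitals the matches to 4 motifs: TGACNNNGC, the antioxidant response element core; GAAA followed after 2 bases of any kind by a further GAAA, the core of the interferon-stimulated response element; TTCNNNGAA, the STAT site of interferon gamma responses; and CCAAT.
Psmb5, at chr14:54617946-54618245, minus strand: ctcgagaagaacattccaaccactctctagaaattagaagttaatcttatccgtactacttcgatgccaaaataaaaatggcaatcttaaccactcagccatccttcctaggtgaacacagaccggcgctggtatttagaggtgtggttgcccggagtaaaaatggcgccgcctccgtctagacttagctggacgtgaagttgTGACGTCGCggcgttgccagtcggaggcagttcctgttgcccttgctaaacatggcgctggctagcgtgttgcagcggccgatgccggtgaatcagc
Psmb8, at chr17:34197945-34198244, plus strand: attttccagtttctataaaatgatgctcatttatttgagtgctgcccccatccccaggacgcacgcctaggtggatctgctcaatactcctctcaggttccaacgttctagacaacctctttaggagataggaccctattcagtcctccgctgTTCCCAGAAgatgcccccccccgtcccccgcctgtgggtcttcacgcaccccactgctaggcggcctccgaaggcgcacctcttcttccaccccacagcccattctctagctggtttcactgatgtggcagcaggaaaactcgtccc
Psmb9, at chr17:34187281-34187580, minus strand: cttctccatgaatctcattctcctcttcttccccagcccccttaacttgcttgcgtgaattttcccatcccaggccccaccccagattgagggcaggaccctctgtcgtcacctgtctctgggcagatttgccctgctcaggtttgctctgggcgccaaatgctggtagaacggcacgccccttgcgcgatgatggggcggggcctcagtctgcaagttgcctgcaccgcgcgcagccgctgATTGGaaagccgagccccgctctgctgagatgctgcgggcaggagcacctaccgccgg
Psmb10, at chr8:105938343-105938642, minus strand: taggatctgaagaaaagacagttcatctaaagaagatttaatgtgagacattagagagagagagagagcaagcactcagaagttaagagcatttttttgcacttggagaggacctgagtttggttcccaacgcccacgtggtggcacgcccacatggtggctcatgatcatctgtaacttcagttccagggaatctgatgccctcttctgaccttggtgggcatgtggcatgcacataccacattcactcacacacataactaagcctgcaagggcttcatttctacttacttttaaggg

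The Psmb5 window held a TGACNNNGC match, the Psmb8 window a TTCNNNGAA match and the Psmb9 window CCAAT on the reverse strand, while the Psmb10 window held none of the 4. Searched on both strands, TGACNNNGC was in 6 of the 45 windows of the 42 members with a full window (13.3%) and in 12.4% of all 32851 windows. The interferon-stimulated element was in 5 of the 45 (11.1%) against 3.44% of all windows, TTCNNNGAA in 3 (6.67%) against 8.30%, and CCAAT in 15 (33.3%) against 37.4%. The 5 windows with the interferon-stimulated element were those of Psmd4, Psmd9, Psmb3, Psmg4 and Psme1, and none belonged to an inducible catalytic gene. A match is only a description of these letters, and the shares of members and of all windows were close for 3 of the 4 motifs.

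The files held 2922 E18 and 2778 P2 cell barcodes, none shared, with medians of 6292.5 and 11764 unique molecular identifiers (UMIs, tags that mark single captured transcripts) per cell. After removal of poor cells, cells were clustered without the members and the genes of their pathway. Probable doublets were dropped after the clustering, which left 2496 E18 and 2296 P2 cells, and clusters were named from marker genes in these. E18 held 296 progenitors (radial precursor or stem, cycling, and excitatory intermediate progenitor cells), 300 neuroblasts and interneurons, 1833 neurons, all excitatory, 50 glia (oligodendrocyte precursors) and 10 microglia. P2 held 627 progenitors (among them inhibitory intermediate progenitors), 979 neuroblasts and interneurons, 373 neurons (217 excitatory and 156 striatal projection neurons), 90 glia and 43 microglia. A further 179 P2 cells in 2 clusters stayed without a name, and 5 E18 cells were mural. Levels are in CPM, the UMIs of a gene in a class scaled to the same total of UMIs for every class, and brackets after a level or ratio hold its exact 95% interval, which covers counting error only and no spread between animals. P2 progenitors were deeper than P2 neurons, with medians of 23064 and 12653 UMIs per cell.

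Psmb8 and Psmb9, the inducible partners of Psmb5 and Psmb6, were genes of microglia in these tissues, whereas Psmb10, the inducible partner of Psmb7, was found in almost every neural class. At P2, Psmb8 stood at 143 CPM (120 to 170) in microglia, from 128 UMIs in 31 of 43 cells. The same library held 0 Psmb8 UMIs in 373 neurons and 2 in 979 neuroblasts. Psmb9 stood at 51.5 CPM (37.7 to 68.7) in P2 microglia, with 46 UMIs in 23 cells, against 2 UMIs in neurons and 1 in neuroblasts. In the 10 microglia of E18, Psmb8 gave 5 UMIs in 5 cells (62.0 CPM, 20.1 to 145) and Psmb9 none (0 to 45.8 CPM). Among the other E18 cells, Psmb8 gave 1 UMI in progenitors and 3 in a single excitatory neuron, and Psmb9 gave none. Against P2 neurons, Psmb9 was higher in microglia by 6.95 on the log2 scale (5.01 to 10.04), and Psmb8 was at least 229-fold higher with neurons set at 3 UMIs over the group.

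**Figure D1:**
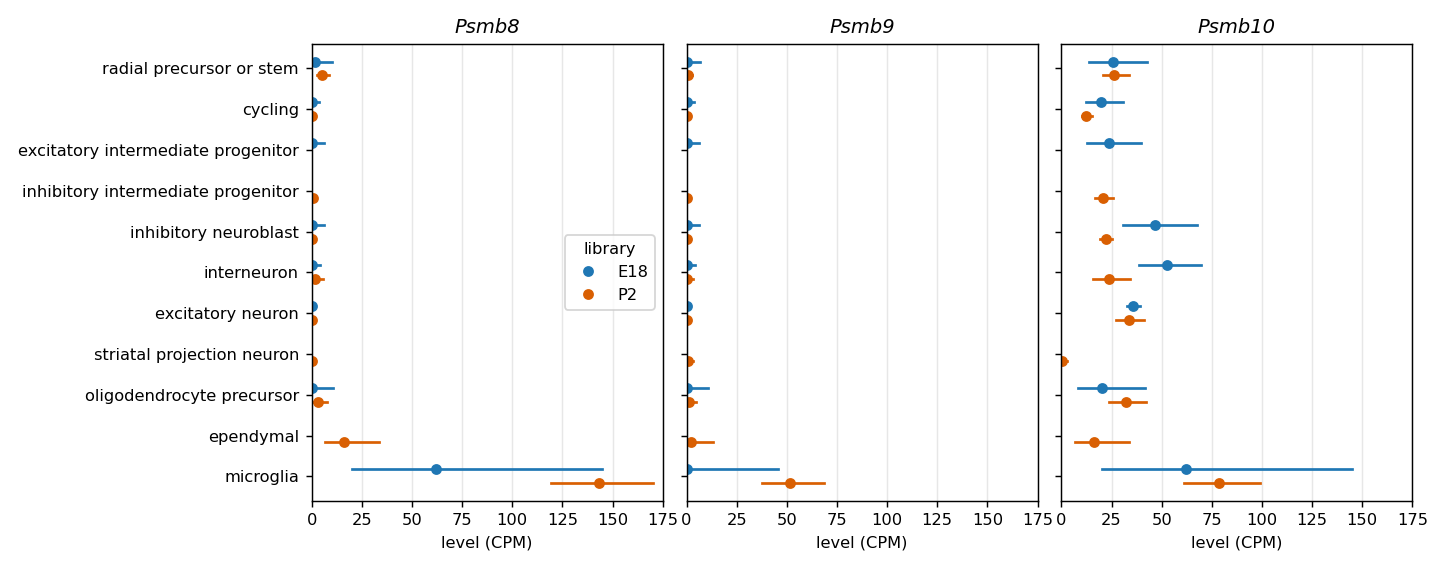
Levels of Psmb8, Psmb9 and Psmb10 in CPM (x axis, linear) for each class (rows) in the E18 (blue) and P2 (orange) libraries, with points for the level and bars for the exact 95% interval of the counts. Psmb8 and Psmb9 rise above 25 CPM in microglia only, whereas Psmb10 lies between 12.3 and 52.6 CPM in the neural classes other than P2 striatal projection neurons, where it is 0.48 CPM.

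A small Psmb8 signal appeared in P2 glial and stem-like cells. It amounted to 13 UMIs in 9 of 132 radial precursor or stem cells (5.06 CPM, 2.69 to 8.65), 5 UMIs in 4 of 82 oligodendrocyte precursors and 7 UMIs in 1 of 8 ependymal cells. These levels were 3.53%, 2.25% and 11.4% of that in microglia. The summed level of 15 microglia marker genes, a measure of RNA free in the droplets, stood in the same classes at 0.128%, 0.0856% and 0.365% of its level in microglia. The Psmb8 share was thus above that of the markers in these 3 classes, while P2 cycling cells held 1 Psmb8 UMI, at 0.0871% of the microglial level against 0.0450% for the markers. With every cell thinned to 3000 UMIs, 36.1% of P2 microglia (20.8 to 53.8) and 0.17% of P2 progenitors had a Psmb8 UMI. Unthinned, the shares were 72.1% and 1.91%, at medians of 19431 and 23064 UMIs per cell. C1qa, a complement gene of microglia, was in 0.511% of thinned P2 progenitors and 91.7% of thinned microglia, and the Psmb8 share of progenitors rests on 1 of 587 cells. By level, P2 progenitors held Psmb8 at 0.752% of its microglial level and the markers at 0.0588%.

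Psmb10 followed another pattern, with differences between kinds of neuron. Among the neural classes of E18 it was highest in interneurons, at 52.6 CPM (38.8 to 69.7), and inhibitory neuroblasts, at 46.4 CPM (30.6 to 67.5), and these intervals overlapped each other and that of excitatory neurons, at 35.7 CPM (32.7 to 39.0). The E18 progenitor classes and oligodendrocyte precursors stood at 19.9 to 25.5 CPM. At P2 the excitatory neurons had 33.6 CPM (27.1 to 41.3), oligodendrocyte precursors 32.2, stem cells 26.5, interneurons 23.7, inhibitory neuroblasts 22.3, inhibitory intermediate progenitors 20.9, ependymal cells 16.3 (7 UMIs) and cycling cells 12.3 CPM. Neighbours in this order had overlapping intervals.

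Striatal projection neurons, named in a single cluster, were the exception. Their 156 cells held 1 Psmb10 UMI among 2088229 UMIs (0.48 CPM, 0.01 to 2.67), whereas the 217 excitatory neurons of the same library held 91 among 2707160. The ratio of the 2 levels was 70.2 (12.3 to 2803, from 1 UMI). Psmb7, the constitutive partner, was at 203 CPM in the striatal and 238 CPM in the excitatory neurons, so the low value did not extend to the partner gene. The activators Psme1 and Psme2 were also lower in striatal neurons, at 89.1 against 205 CPM and 40.7 against 104 CPM, from 186 and 85 striatal UMIs. Under other settings for filtering and clustering, the striatal class held 1 to 4 Psmb10 UMIs (0.48 to 2.99 CPM). Microglia markers stood at 0.0241% of their microglial level in striatal neurons, and Psmb10 at 0.611%, while in the other named neural classes of P2 Psmb10 reached 15.8% to 42.9% of its microglial level. An unnamed P2 cluster of 150 cells, led by Six3 and Zfhx3, was the next lowest, with 16 Psmb10 UMIs and 11.6% of the microglial level.

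Set against their constitutive partners, the 3 inducible genes made up 32.2% of the UMIs of the 3 pairs in P2 microglia (28.9 to 35.7, 244 inducible and 513 constitutive UMIs) and 16.9% in E18 microglia (8.44 to 29.0, 10 and 49 UMIs). In the other E18 classes with a name, mural cells left aside, the share ran from 1.56% in cycling cells to 4.28% in interneurons, and at P2 from 0.178% in striatal neurons to 3.98% in oligodendrocyte precursors. Psmb10 gave 68 of the 83 inducible UMIs in P2 stem cells and all 91 in P2 excitatory neurons, but 7 of 15 in ependymal cells. The share compares cells and not genes, since levels of different genes depend on more than their transcripts, and it says nothing of protein. The P2 microglia value rose to 40.6% under a stricter mitochondrial limit of 5%.

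The remaining core and regulatory particle genes were present in all classes. Summed over the 31 genes, they made up 8092 CPM of progenitors (7972 to 8213), 7741 of neuroblasts, 7423 of neurons and 7914 of glia at E18. At P2 the sums were 8131 CPM in progenitors, 6661 in neuroblasts, 6671 in neurons and 6919 in glia. Microglia were lowest in both libraries, at 4219 CPM (3782 to 4692, 10 cells) and 4787 CPM (4644 to 4932, 43 cells). By class, the highest sum was that of P2 inhibitory intermediate progenitors, at 8998 CPM, followed by E18 excitatory intermediate progenitors at 8303 and E18 and P2 cycling cells at 8233 and 8135. The intervals of these last 3 overlapped. The order did not hold in cells of 6000 to 15000 UMIs, where the P2 inhibitory intermediate progenitors (18 cells) were at 7310 CPM (6955 to 7678), below E18 excitatory intermediate progenitors at 8682, E18 oligodendrocyte precursors at 8159 and E18 cycling cells at 8125. Over all cells their median depth was 21893 UMIs, and with doublets kept no cluster took their name. The 5 mural cells of E18, at 8176 CPM (7299 to 9129), could not be placed in this order. Within a class, cells spread widely. In E18 excitatory neurons the 31 genes took 0.63% of a cell's UMIs at the lower quartile, 0.76% at the median and 0.88% at the upper quartile.

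**Figure D2:**
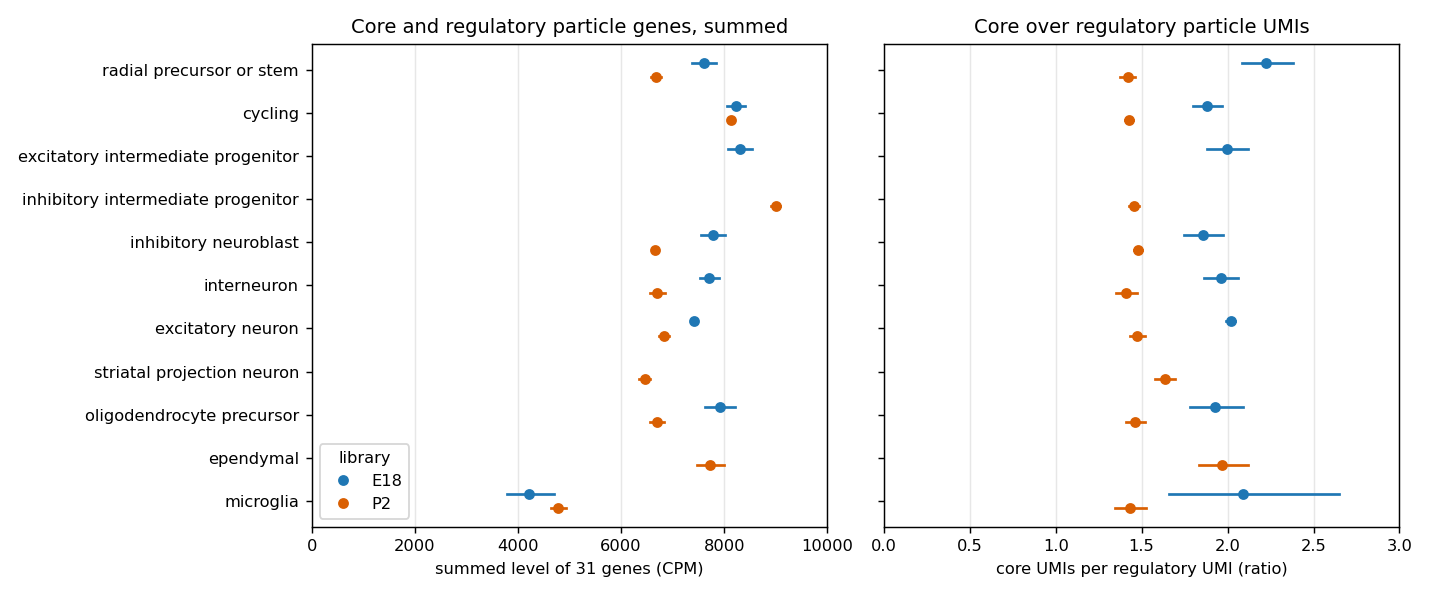
Left, summed level of the 31 core and regulatory particle genes in CPM (x axis, linear from 0) by class, and right, core particle UMIs per regulatory particle UMI, for E18 (blue) and P2 (orange), with exact 95% intervals of the counts as bars. Microglia are lowest on the left, and on the right the P2 points lie at 1.41 to 1.64 and the E18 points at 1.86 to 2.23 in the classes other than ependymal and mural cells.

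The E18 excitatory neurons were not uniform. Their 10 clusters ran from 8594 CPM in cluster 14 (led by Fgfr1 and Grem1) and 8476 in cluster 1 (Sema3c and Pdzrn3) down to 6193 in cluster 6 (Npy and Nefl) and 5857 in cluster 10 (Rorb and Msx3). Cluster 5, led by Pcp4, Rnd2 and Neurod1, a factor of newly formed neurons, was at 8370 CPM. Psmb10 ran the other way, from 17.1 CPM (9.57 to 28.2) in cluster 5 to 53.3 CPM (41.4 to 67.4) in cluster 10. Median depth moved with this order, at 5006 UMIs per cell in cluster 5 against 10198 in cluster 10 and 12820 in cluster 6. Restricted to cells of 6000 to 15000 UMIs, the sums were 9161 CPM in cluster 5, 5734 in cluster 10 and 5407 in cluster 6, from 22, 117 and 107 cells. Depth still differed within that range, with medians of 6510.5, 10164 and 10400 UMIs per cell, so its part in the difference was not tested. Psmb10 in these cells gave 4 UMIs in cluster 5 (28.2 CPM) and 65 in cluster 10 (54.4 CPM).

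**Figure D3:**
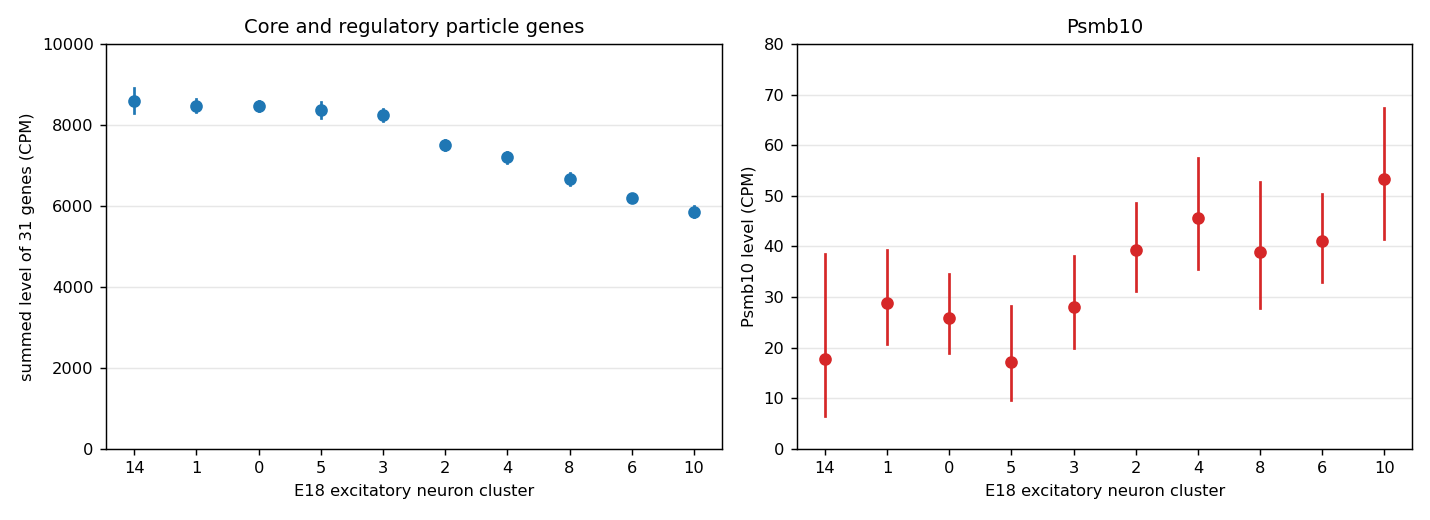
Summed level of the 31 core and regulatory particle genes (left) and level of Psmb10 (right), both in CPM on axes from 0, in the 10 excitatory neuron clusters of E18, ordered by the sum, with exact 95% intervals of the counts. The sum falls from 8594 to 5857 CPM along this order, whereas Psmb10 is 17.1 CPM in cluster 5 and 53.3 CPM in cluster 10.

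Progenitors were then compared with neurons of the same library, calling a gene at a 1.5-fold difference with at least 10 UMIs expected in the smaller group. At E18, of 45 members with enough UMIs, 4 were higher in progenitors and 1 was lower, where 27.7% and 23.0% of all genes tested were (50.7% in either direction). With TMM scaling, which sets the bulk of genes equal between the groups, 1 was higher and 1 lower at E18. At P2, 6 of 45 were higher and none lower, against 25.4% and 24.0% of all genes (49.4% in either direction). The summed core and regulatory particle level was higher in progenitors by 0.12 on the log2 scale at E18 (0.10 to 0.15) and 0.29 at P2 (0.27 to 0.31). Neither sum was firm: TMM scaling shifted all genes by -0.17 and the E18 value turned to -0.046, and in cells of 6000 to 15000 UMIs the P2 value was 0.042.

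Single members differed more than the sum. Psmc3, an ATPase of the regulatory ring, was at 200.5 CPM in E18 progenitors against 131 in neurons (log2 ratio 0.61, 0.45 to 0.76). In the P2 library it was at 230.0 against 131 CPM (0.82, 0.69 to 0.94). P2 neurons pool striatal cells, at 93.4 CPM of Psmc3, with excitatory cells, at 160 CPM. Against the excitatory cells alone Psmc3 was inside the fold. Psmc5 and Psmc4, also ATPases, passed the fold at P2 only, by 0.71 (0.58 to 0.84) and 0.59 (0.47 to 0.70). At E18 their ratios were 0.06 and 0.30. The chaperone Psmg2, which with Psmg1 guides alpha ring assembly, was higher in progenitors of both libraries, at 76.5 against 45.4 CPM at E18 and 50.9 against 32.5 CPM at P2. Psme4, the activator PA200, was higher in E18 progenitors by 0.69 (0.25 to 1.11), and Psme3, the nuclear activator PA28 gamma, in P2 progenitors by 0.70 (0.43 to 0.99). Psmc3ip was higher in progenitors by 1.67 (1.38 to 1.95) and 1.33 (1.11 to 1.57), with 124 CPM in E18 cycling and in P2 inhibitory intermediate progenitor cells and 193 in the 8 ependymal cells. The 1 lower member was Psmb10 at E18, by -0.67 (-1.13 to -0.25), and by -0.54 with doublets kept, inside the fold. With TMM scaling Psmc3, Psmg2 and Psme4 fell inside the fold at E18, at 0.44, 0.58 and 0.52, and Psmc3ip, which is no proteasome subunit, was the 1 higher member left. In cells of 6000 to 15000 UMIs, the P2 ratios of Psmc5, Psmc4, Psmg2 and Psmc3ip were inside the fold, at 0.29, -0.07, 0.52 and 0.08.

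No core particle gene passed the fold in progenitors of either library. The catalytic genes Psmb5, Psmb6 and Psmb7 differed by 0.11, 0.23 and 0.13 at E18 and by 0.31, 0.49 and 0.12 at P2. All 14 core genes had a positive log2 ratio at P2 and 10 of 14 at E18, where the summed core ratio of 0.12 turned to -0.053 with TMM scaling. Psmf1, the inhibitor PI31, Psme1 and Psme2 lay between -0.50 and 0.01 in both.

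Neuroblasts and interneurons resembled neurons in these genes. None of 45 members passed the fold in either library, where 12.7% of genes were higher and 10.5% lower at E18, and 12.5% and 16.2% at P2. The summed ratios were 0.061 and -0.0023, of which the first turned to -0.059 and the second to 0.034 with TMM scaling. The members nearest to the fold were Psmb10 at E18, with 50.2 against 35.7 CPM (0.49), and Psmg1 at P2, with 28.7 against 39.0 CPM (-0.44). Glia, mostly oligodendrocyte precursors, had 3 of 42 members higher at E18 (21.2% of all genes higher, 25.5% lower) and 6 of 45 higher and 2 lower at P2 (33.0% and 16.0%, or 49.0% either way). At E18 these were the chaperones Psmd5, Psmg2 and Psmg4, by 0.69, 0.62 and 0.76. At P2 they were Psmc3, Psmg2, Psmc3ip, Psmb6, Psmd10 and Psmd9, by 0.67, 0.73, 0.70, 0.63, 0.80 and 0.62. None of these 6 passed the fold upwards in the 82 P2 oligodendrocyte precursors alone, a comparison chosen after seeing the data, so the calls rested on adding the 8 ependymal cells. Psmb6 was then at 0.15, with 362 CPM against 1018 in ependymal cells, and Psmc3ip was lower than in neurons (-0.60, 25.1 against 38.0 CPM). Psmd14, the deubiquitinase of the regulatory particle, was lower at P2 by -0.75 and Psmg4 by -0.76. The summed ratio in glia, 0.092 and 0.053, turned negative with TMM scaling, to -0.023 and -0.17. That scaling left 1 member higher and 1 lower in E18 glia, and 0 higher and 5 lower in P2 glia, so the direction of the glial calls depended on it.

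**Figure D4:**
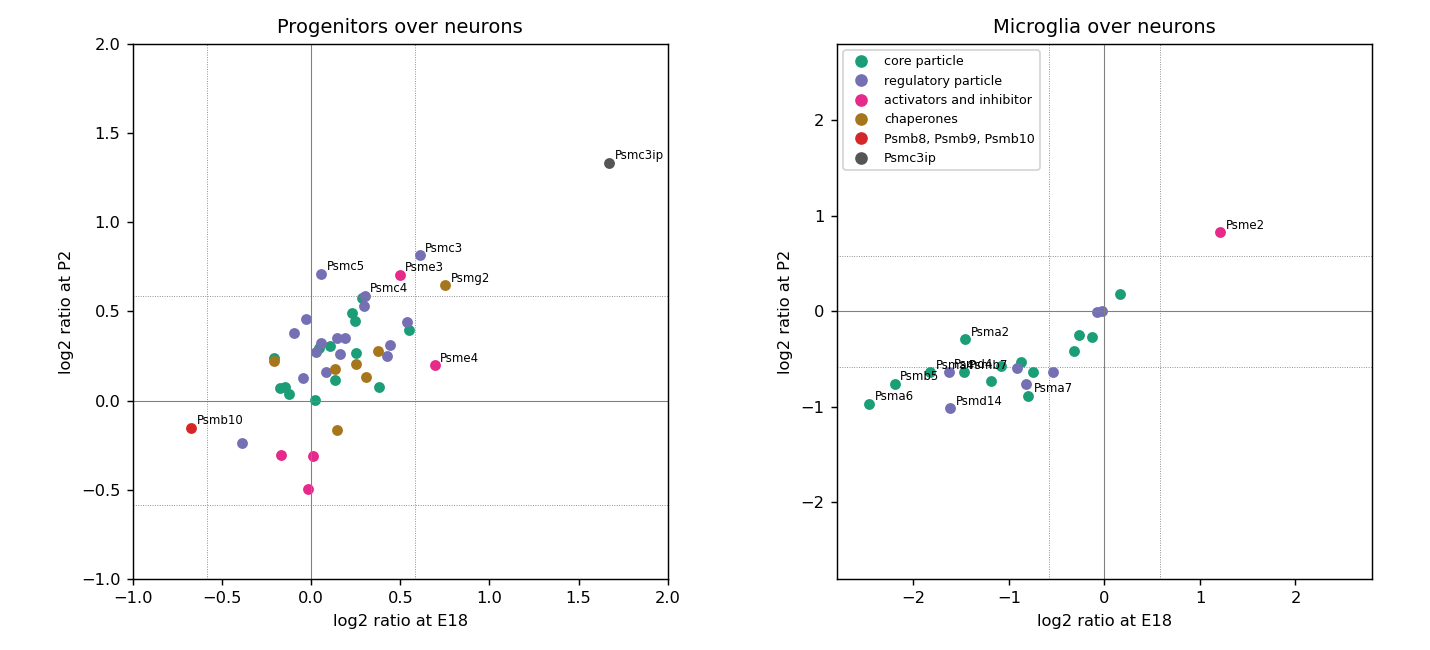
Log2 ratio of CPM over neurons at E18 (x axis) and P2 (y axis) for progenitors (left) and microglia (right), one point per member with enough UMIs in both libraries, coloured by role, with dotted lines at 1.5-fold. Psmc3, Psmg2 and Psmc3ip pass the fold in progenitors of both libraries and Psme2 in microglia of both. With TMM scaling Psmc3 and Psmg2 do not pass in E18 progenitors. Against P2 excitatory neurons alone, Psmc3 in P2 progenitors and Psme2 in P2 microglia are inside the fold. Psmb8, Psmb9 and Psmb10 have too few E18 UMIs for the right panel.

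Microglia differed from neurons in both directions. At P2, 4 of 47 members were higher and 21 lower, where 26.4% and 45.6% of all genes were (72.0% in all), so the share of lower members was near that of all genes. With TMM scaling 7 were higher and 6 lower. At E18, with 10 cells, 1 of 22 was higher and 14 lower (27.5% and 41.5% of all genes, 69.0% in all). The higher members at P2 were the 3 inducible catalytic genes and Psme2, and Psme2 was the higher one at E18. Psme2 encodes a subunit of the interferon-inducible cap PA28, in which it joins Psme1. It stood at 223 against 96.5 CPM at E18 (log2 1.21, 0.45 to 1.88) and 135 against 76.3 CPM at P2 (0.83, 0.52 to 1.13). Against P2 excitatory neurons alone, at 104 CPM, the P2 ratio of Psme2 was 0.38 (0.06 to 0.70), inside the fold. Its near copy Psme2b had at most 10 UMIs in any class, and reads of the copies may not be separable. Psme1 did not pass the fold, with 0.34 at P2 (195 against 154 CPM). Psmb10 was at 78.3 CPM in P2 microglia and 19.2 in neurons, a log2 ratio of 2.03 (1.56 to 2.49). These neurons include the striatal cells, and against excitatory neurons alone, at 33.6 CPM, the ratio was 1.22 (0.75 to 1.69).

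Among the lower members in P2 microglia were the constitutive catalytic genes Psmb5, at 161 against 273 CPM (-0.76, -1.02 to -0.51), and Psmb7, at 143 against 223 CPM (-0.64, -0.91 to -0.37). Psmb6 did not pass, at -0.27. The alpha ring genes Psma6 and Psma7 were lower by -0.97 and -0.88, Psmd14 by -1.01, Psmd2, a scaffold of the regulatory base, by -0.87, Psmc6 by -0.85 and Psmd11 by -0.76. With TMM scaling Psmb5, Psmb7, Psma7, Psmd2, Psmc6 and Psmd11 lay inside the fold, at -0.43, -0.31, -0.56, -0.54, -0.52 and -0.43, while Psma6 and Psmd14 were among the 6 that passed. The summed ratio was -0.48 (-0.53 to -0.43) at P2 and -0.82 at E18 (-0.97 to -0.66), and -0.15 and -1.05 with TMM scaling. Among the genes of restricted use, Psma8 had UMIs in microglia and in no other named class of either library (2 in E18 and 5 in P2 microglia), which is at or near the floor of 3 UMIs and is chosen here after its values were seen.

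Between the libraries the core particle was lower at P2 relative to the regulatory particle. In radial precursor or stem cells the core genes summed to 5249 CPM at E18 and 3918 at P2 and the regulatory genes to 2357 and 2761, log2 ratios of -0.42 (-0.48 to -0.36) and 0.23 (0.14 to 0.31). The core ratio was -0.17 in cycling cells, -0.36 in neuroblasts, -0.29 in excitatory neurons and -0.39 in oligodendrocyte precursors. The regulatory ratio was 0.23, 0.02, 0.17 and 0.01 in the same classes. Neuroblasts are pooled with interneurons here and in the comparisons of the libraries below, with 168 interneurons among 300 cells at E18 and 85 among 979 at P2. In their ratios the mix of cells cannot be told apart from age. Of the 14 core genes, 11 to 13 had a negative ratio in each of the 5 classes, and of the 17 regulatory genes 8 to 16 a positive one. TMM scaling shifted all genes by up to -0.33 in these comparisons and left the core ratios at -0.18 to -0.69, but took the regulatory ratio of excitatory neurons to -0.16 and of oligodendrocyte precursors to -0.29. Leaving ribosomal and mitochondrial genes out of the totals took that of neuroblasts to -0.01 and of oligodendrocyte precursors to -0.20, so the regulatory ratio had no firm sign in these 3 classes. With TMM scaling it was 0.06 in stem cells and 0.22 in cycling cells, so in stem cells its size depended on the scaling.

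The ratio of core to regulatory UMIs does not depend on the scaling of the libraries. It was 2.23 (2.08 to 2.38) at E18 and 1.42 (1.38 to 1.46) at P2 in stem cells, 1.88 and 1.42 in cycling cells, 2.02 and 1.47 in excitatory neurons, and 1.93 and 1.46 in oligodendrocyte precursors. Interneurons had 1.96 and 1.41 and microglia 2.09 (1.66 to 2.65) and 1.43 (1.35 to 1.52). In each of these classes the intervals of the libraries did not overlap. Within E18 the excitatory clusters themselves ran from 1.69 in cluster 0 to 2.45 in cluster 6, a wider range than the step between the libraries in excitatory neurons.

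Transcript length moved with the age ratio over all genes and is therefore given beside it. Among genes that are not members, the median log2 ratio of P2 over E18 was -0.31 to -0.39, depending on the class, for genes whose longest coding transcript is under 1000 bases, and 0.46 to 0.83 for those of 4000 bases or more. Core genes have a median length of 1163 bases and regulatory genes of 1819. Within the class of 1000 to 2000 bases, which holds 8 core and 12 regulatory genes, the medians were -0.53 and 0.24 in stem cells, -0.30 and 0.12 in cycling cells, -0.41 and -0.09 in neuroblasts, -0.29 and 0.04 in excitatory neurons and -0.48 and -0.10 in oligodendrocyte precursors. The other genes of that length had medians of -0.18, -0.24, -0.28, -0.13 and -0.16. In this length class the core medians were below and the regulatory medians above those of the other genes in all 5 cell classes. The length class does not match core and regulatory genes for length, however. Its core genes other than Psmb1 (1970 bases) had at most 1239 bases (Psma5), and its regulatory genes at least 1316 (Psmc5). The part of length in these medians was not tested. The 4 core genes under 1000 bases had medians below those of other genes in 4 classes, but not in cycling cells (-0.16 against -0.36). From 2000 to 4000 bases, the 2 core genes were above the others in cycling cells (0.066 against 0.038) and the 5 regulatory genes no higher in oligodendrocyte precursors (0.21 against 0.22).

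By the 1.5-fold rule, 8 of 45 members were lower and 2 higher at P2 in stem cells (14.7% and 30.1% of all genes), 6 and 2 in cycling cells (18.2% and 27.6%), 8 and 1 in neuroblasts (21.2% and 28.7%), and 3 and 4 in excitatory neurons (15.6% and 34.1%, 49.7% in all). In oligodendrocyte precursors 10 of 43 were lower and 3 higher (15.0% and 36.0%, 51.0% in all). With TMM scaling 13 were lower and 2 higher in stem cells, 13 lower and 1 higher in excitatory neurons, and 22 lower and 0 higher in oligodendrocyte precursors. With ribosomal and mitochondrial genes left out of the totals, 12 were lower and 2 higher in stem cells, 6 lower and 1 higher in cycling cells and 17 lower and 1 higher in oligodendrocyte precursors. Psmb1, a structural beta subunit, was lower in 4 of the 5 classes, by -0.62 to -0.72, and by -0.48 in cycling cells. Psma1, of the alpha ring, was lower in stem cells (-0.85), cycling cells (-0.62) and oligodendrocyte precursors (-0.59). The catalytic Psmb7 was lower in stem cells, neuroblasts and oligodendrocyte precursors, by -0.75, -0.59 and -0.64. Without these changes of scale, the regulatory genes past the fold were all higher at P2: Psmd2 and Psmd12 in excitatory neurons (0.68 and 0.64), Psmd6 in cycling cells (0.61), and Psmd3 and Psmd13 in oligodendrocyte precursors (0.64 and 0.61). With TMM scaling Psmd2, Psmd12, Psmd3 and Psmd13 were inside the fold, at 0.36, 0.32, 0.34 and 0.31, and without ribosomal and mitochondrial genes Psmd6 was at 0.53.

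The activators moved apart. Psme4 was higher at P2 in all 5 classes, at 34.6 against 20.0 CPM in stem cells, 53.6 against 28.8 in cycling cells, 54.6 against 16.7 in neuroblasts, 48.0 against 16.7 in excitatory neurons and 47.6 against 26.1 in oligodendrocyte precursors. The log2 ratio was largest in neuroblasts, 1.71 (1.13 to 2.34), and the intervals of stem cells and oligodendrocyte precursors, which rest on 11 and 9 E18 UMIs, included 0. With TMM scaling the ratio of oligodendrocyte precursors was 0.57 (0.54 with doublets kept), and with members in the clustering that of stem cells was 0.56, both inside the fold. The longest coding transcript of Psme4 has 6491 bases, in the range in which other genes were higher at P2 too. Psme3 was lower at P2 in all 5 classes, by -0.79, -0.87, -0.65, -1.06 and -0.81 in the same order, with 47.6 against 22.9 CPM in excitatory neurons. Its transcript of 2664 bases lies in a range in which other genes had medians of -0.01 to 0.22. Psme1 was higher in P2 excitatory neurons, at 205 against 118 CPM (0.79, 0.65 to 0.93; 0.47 with TMM scaling, inside the fold), and Psme2 did not pass the fold in any class.

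Of the chaperones of the core particle, Psmg3 and Psmg2 were lower at P2 in most classes. Psmg3 was past the fold in 4 of 5 classes, with 27.3 CPM at P2 against 71.6 at E18 in neuroblasts (-1.39, -1.71 to -1.06), 33.2 against 66.8 in excitatory neurons, 34.6 against 59.6 in cycling cells and 31.5 against 81.3 in oligodendrocyte precursors, and was at -0.51 in stem cells. Psmg2 was past the fold in 4 classes (-0.61 in stem cells, -0.83 in cycling cells, -0.99 in neuroblasts and -0.71 in oligodendrocyte precursors) and Psmg4 in stem cells (-0.66) and oligodendrocyte precursors (-1.47). Psmg1 was between -0.05 and -0.58 and passed in none. The transcripts of Psmg4 and Psmg3 have 555 and 883 bases, in the range in which other genes had medians of -0.31 to -0.39, and those of Psmg1 and Psmg2 have 1044 and 1300 bases, where the medians were -0.13 to -0.28. Psmf1 was lower in oligodendrocyte precursors only, by -0.90 (-1.75 to 0.00). Psmb10 was lower in P2 neuroblasts, at 22.4 against 50.2 CPM (-1.16, -1.54 to -0.77), and cycling cells (-0.69, -1.39 to 0.09), and unlike the other 2 inducible genes was measurable in both libraries.

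P2 neuroblasts with an EYFP UMI (279 cells, of cortical origin by the mouse line) were compared with those without (700 cells), which share a library. Of 45 members none was higher and 1 lower, against 3.74% and 6.75% of all genes, and the summed ratio was 0.05 (0.03 to 0.07). The lower member was Psmg1, at 21.4 against 32.7 CPM (-0.61, -0.99 to -0.25). It was inside the fold, at -0.53, with a mitochondrial limit of 5% and at -0.53 with doublets kept. A cell without an EYFP UMI may still carry the recombined allele, since detection depends on depth.

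Other genes of the pathway were taken from 9 lists. Sem1, a small regulatory particle subunit whose name falls outside the rule, was higher in progenitors by 0.88 (0.80 to 0.96) at E18, at 815 against 443 CPM, and by 1.29 (1.22 to 1.36) at P2, at 988 against 404 CPM. Pomp, the maturation factor of the core particle, did not pass the fold there (-0.06 and 0.04), and was lower at P2 than E18 in stem cells (-0.72) and oligodendrocyte precursors (-0.66). Nfe2l2 (NRF2), a factor that binds antioxidant response elements, was at 23.3 against 0.35 CPM in E18 progenitors and neurons and at 26.1 against 1.67 CPM at P2. Of the 18 ubiquitin-conjugating enzymes, 3 were higher and 3 lower in progenitors of each library, where 27.7% and 23.0% of all genes were at E18 and 25.4% and 24.0% at P2. Ube2s, which extends chains for the anaphase-promoting complex, was higher in both (0.72 and 1.42), and Ube2d1 lower (-0.96 and -0.90). With TMM scaling, which shifted all genes by -0.17 at E18, the E18 ratio of Ube2s was inside the fold. Uchl1, an abundant neuronal deubiquitinase, was lower in progenitors by -2.06 and -1.40 and in P2 microglia by -4.57.

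In P2 microglia all 14 genes with enough UMIs in the list of 15 for antigen processing and interferon response were higher than in neurons (26.4% of all genes), with a list median of 5.56 against -0.42 for all genes. B2m, the light chain of class I molecules, was at 1913 against 5.21 CPM and the peptide transporter gene Tap1 at 42.5 against 2.50 CPM. The rise over neurons was not confined to microglia. In P2 glia 9 of 10 listed genes were higher and 1 lower (33.0% and 16.0% of all genes), with a list median of 1.42. P2 progenitors had 5 of 9 higher and 1 lower (25.4% and 24.0%, median 1.11), and E18 progenitors 4 of 6 higher and 2 lower (27.7% and 23.0%, median 1.72). In E18 neuroblasts 0 of 3 were higher and 2 lower. Of the 4 ubiquitin genes, 1 was higher and 1 lower in P2 microglia (26.4% and 45.6% of all genes), with a list median of 0.27 against -0.42. The lower one was Ubb, which encodes a ubiquitin precursor, by -0.77. With TMM scaling, which shifted all genes by 0.33, Ubb was inside the fold. Between the libraries, 3 or 4 of 5 deubiquitinases of neurons were higher at P2 in each class (27.6% to 36.0% of all genes), with list medians of 0.61 to 1.25 against 0.07 to 0.24 for all genes. These values are without TMM scaling, which shifted all genes by -0.33 in excitatory neurons and -0.30 in oligodendrocyte precursors. The transcript lengths of the listed genes were not set beside these ratios, although longer genes were higher at P2. Of the p97 list, Vcp itself, the segregase that extracts tagged proteins, was higher at P2 in 4 of the 5 classes, by 0.73 to 0.81, and at 0.39 in oligodendrocyte precursors. With TMM scaling, which shifted all genes by -0.33 in excitatory neurons, Vcp was inside the fold there.

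Across the 15 classes of 50 or more cells, the non-member genes whose level ran most like the summed core and regulatory particle level were Zfp422 (Pearson r 0.89), Apex1 (0.88), Hnrnpc (0.88), Hdgf (0.87) and Trim27 (0.87), out of 3383 genes compared on log2(CPM + 1). The classes share 2 libraries and their depths, so this is a description only. Members varied among themselves: over the same classes the highest and lowest level differed by 110-fold for Psmb10, 6.82-fold for Psmc3ip, 5.07-fold for Psme4, 3.64-fold for Psme3 and 3.55-fold for Psmg3, while the lowest ratios were those of Psmd7 and Psma2, 1.40-fold and 1.43-fold.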

How the data were processed

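Each library was deposited as UMI counts per gene and cell, which the authors made with Cell Ranger 4 on mm10, per the submitters' processing notes; no source used here names the kit. Cells with 500 or more genes and at most 10% mitochondrial UMIs were kept. Apart from doublets called by Scrublet's own threshold (7 at E18 and 4 at P2), they were clustered without the members and pathway genes (scanpy 1.11.5, 2000 variable genes, 30 components, Leiden resolution 1). The 5% with the highest Scrublet scores were dropped as probable doublets after the clustering and before the naming. Clusters took the name of the best of 21 marker lists with a score of at least 0.4. The limit of 0.4 was set after seeing the clusters. Raw counts were summed per class; intervals are exact Poisson, conditional or Clopper-Pearson ones at 95%, and no p-value was computed. Totals were 19986915 UMIs at E18 and 42572208 at P2. The intervals were tested on simulated data. TMM factors came from edgeR 4.0.16. Named genes were the catalytic, inducible, activator, inhibitor and core chaperone genes and, per comparison, the 6 highest and 6 lowest past the fold by the interval bound nearest 0, except Pomp, Tap1, Vcp, Psmd7, Psma2 and Psma8, named for their role or spread after their values were seen. Members and lists were chosen with earlier results of these data known. Gene lengths come from GENCODE M21 and promoters from RefSeq. Alternatives were other filters, doublets kept, other clustering, scaling, fold and UMI minimum.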

Additional observations from a re-analysis of the deposited data

Results flagged for a closer look

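In 3 members the ratio to neurons had opposite signs in the libraries, with both intervals away from 0. The difference itself was not tested, since there was 1 library per age. Psma6, an alpha ring gene, was at -0.21 in E18 progenitors and 0.24 in P2 progenitors. Psmd13, of the regulatory particle lid, was at 0.22 in E18 neuroblasts and -0.15 in P2 neuroblasts. Psmg4, a core chaperone, was at 0.76 in E18 glia and -0.76 in P2 glia, and is the only one of the 3 past the 1.5-fold limit. P2 neurons include striatal neurons, in which Psmg4 was at 159 CPM against 79.4 CPM in P2 excitatory neurons.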

How the results depend on the processing

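No paired analysis was possible because each age had 1 library and the comparisons are within a library or between single libraries. Order below is progenitors, neuroblasts, glia and microglia over neurons, then P2 over E18 in stem cells, cycling cells, neuroblasts, excitatory neurons and oligodendrocyte precursors; "sum" is the summed log2 ratio and "count" the members past the fold. With TMM scaling the E18 sums were -0.046, -0.059, -0.023 and -1.05 and the P2 sums 0.35, 0.034, -0.17 and -0.15, so E18 progenitors, neuroblasts and glia and P2 glia reversed; the sums between ages were -0.36 in stem cells, -0.45 in excitatory neurons and -0.54 in oligodendrocyte precursors. TMM counts were 2 for E18 progenitors, 5 for P2 glia, 13 for P2 microglia, 14 for excitatory neurons and 22 for oligodendrocyte precursors. Without ribosomal and mitochondrial genes in the total, sums were 0.17 in E18 progenitors and 0.26 in E18 glia (count 7), and between ages -0.29, -0.10, -0.25, -0.18 and -0.44. In cells of 6000 to 15000 UMIs, chosen after seeing the data, the E18 sums were 0.17, 0.12 and 0.17 (glia count 5, microglia count 5), the P2 sums 0.042 (count 3) for progenitors, -0.11 for glia, reversed, and -0.38 (count 6) for microglia, and between ages -0.52 (count 20) in stem cells, -0.12 in cycling cells, -0.25 (count 15) in neuroblasts and -0.40 (count 22) in oligodendrocyte precursors; the EYFP sum was 0.027. With a mitochondrial limit of 5%, sums were -1.12 in E18 microglia (count 6), -0.046 in P2 glia (count 5), reversed, -0.65 in P2 microglia and 0.016 in cycling cells between ages; the E18 glia count was 6, the EYFP count 0 and the P2 microglia share 40.6%. Summed levels were then 3492 CPM in E18 microglia, 7577 in E18 neurons, and 8289, 6788, 6817, 6604 and 4347 in P2 progenitors, neuroblasts, neurons, glia and microglia. With doublets kept, P2 progenitors were at 8040 CPM (sum 0.26), P2 microglia at 4941, and the EYFP count was 0. At Leiden resolution 0.5, P2 neuroblasts were at 6897 CPM (sum 0.048), P2 progenitors at 8058 and the sum between ages in neuroblasts -0.17; that setting left no E18 oligodendrocyte precursor cluster. With members in the clustering, P2 neuroblasts were at 6868 CPM (sums 0.045 and -0.17). A 2-fold call left 1 in E18 and 1 in P2 progenitors, 0 in E18 and 0 in P2 glia, 6 in P2 microglia, 1, 0, 3, 3 and 2 between ages and 0 for EYFP. With no UMI minimum counts were 8, 3, 8 and 33 at E18, 10 and 4 for P2 progenitors and neuroblasts and 5 for EYFP; with 50 expected UMIs they were 1 in E18 glia, 0 in E18 microglia, and 6, 5 and 4 in stem cells, cycling cells and oligodendrocyte precursors between ages. Fewer or more genes can pass by construction in these last 3; for the others the cause was not tested. The 10 E18 microglia hold 80591 UMIs in all, which limits their values.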
